A study of Homo sapiens with 6 samples.

Results

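The matrix metalloproteinases (MMPs), the ADAM and ADAMTS metalloproteases and their inhibitors, the TIMPs, were compared between a pair of SKOV3.ip1 derivatives. The families held 142 probe sets of 62 genes, of 54613 non-control probe sets and 19775 named genes on the array. They were chosen by name: each probe set was annotated to exactly 1 protein-coding gene whose symbol was MMP, TIMP, ADAM or ADAMTS followed by a digit. MMP genes took 43 probe sets (22 genes), ADAM genes 50 (18 genes), ADAMTS genes 40 (18 genes) and TIMP genes 9 (4 genes). Pseudogenes, antisense and divergent transcripts and the opposite-strand gene MMP24OS were left out, 21 probe sets in all.

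SKOV3.ip1 cells derive from SKOV3, an established line of human ovarian carcinoma. Each derivative was stably transfected with a vector for PEA-15, a small adaptor protein that binds ERK and FADD. The S116A line carried a form that cannot be phosphorylated at Ser116, because that residue is alanine, and the S116D line a phosphomimetic form with aspartic acid instead. For the S116D form, the sample characteristics also list Ser104 as substituted, and the treatment text gives the residue as Ser16, so the labels do not settle its sequence. No array of the parental or an empty-vector line was analysed here, and the labels do not say whether a line was 1 clone. Each line had 3 arrays, which the labels do not tie to separate cultures, so p-values measure the spread between arrays, which may be technical.

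MMPs are secreted or membrane-bound zinc proteases that cut collagens, other matrix proteins and cell-surface proteins, and are made as inactive precursors. ADAMs are membrane proteins, some of which shed the outer parts of receptors, adhesion molecules and growth factor precursors, while others lack the zinc-binding site and act in adhesion. ADAMTS proteins are secreted and process matrix proteoglycans and procollagens. TIMPs bind and block these enzymes with differing preference. In ovarian carcinoma the families are studied for their part in invasion of the peritoneal lining.

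The 6 arrays had median log2 signals between 7.862 and 7.893. PEA15 itself did not pass the test on either of its probe sets (differences of -0.06 and -0.19, limma adjusted p = 0.82 and 0.20), and whether these read the vector transcript was not tested. Of 11 markers of ovarian carcinoma lines, 9 read above the level described next, PAX8 among them at 12.77 and 12.82, while MUC16 and MSLN did not. Of these 11, 6 were called, against 11.0% of all genes on their brightest probe set and 17.3% of all probe sets above that level. FOLR1 was higher in S116D (0.72), and KRT7 (-1.56), EPCAM (-0.90), KRT18 (-0.70), SOX17 (-0.61) and KRT8 (-0.39) were lower. The part of these 6 markers in the results below was not tested. Without detection calls in the table, the 95th percentile of the mean signals of 107 olfactory receptor probe sets, 9.03 on the log2 scale, served as a rough guide to dim signal. It is no detection limit, since DCN, CD3E, PECAM1, TEK and COL1A1, markers of other cell types, also exceeded it. Of 17 measured markers of leukocytes, fibroblasts and endothelium, KDR was called (-0.43, from a dim 6.15), where 11.0% of all genes were. The summed signal of each list differed little. For leukocytes it was 10.21 to 10.33 in S116A against 10.24 to 10.37 in S116D. It was 11.53 to 11.62 against 11.54 to 11.58 for fibroblasts, and 11.11 to 11.16 against 11.11 to 11.23 for endothelium. Within both lines the arrays also split along the second principal component (20.3% of the variance). S116D 1 lay with S116A 1 and 2 (array set a), and S116A 3 with S116D 2 and 3 (array set b), a split that no label gives.

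Values are the deposited log2 signals, and each difference is S116D minus S116A on that scale. A probe set was called where limma's Benjamini-Hochberg adjusted p over all 54613 probe sets was under 0.05. By this rule 22 of the 142 member probe sets were called, 6 higher and 16 lower in S116D, against 8.55% of all probe sets called in either direction, 4.36% higher and 4.19% lower. They belonged to 15 of the 62 genes, against 15.0% of all genes with at least 1 called probe set. On each gene's brightest probe set 10 of 62 were called, 5 higher and 5 lower, against 11.0% of all genes, 6.13% higher and 4.82% lower. In none of these genes were probe sets called in opposite directions. The median difference over the members was -0.014, against 0.003 over all probe sets, so most members sat near 0. Of the 30 members above the olfactory receptor level 12 were called, where 17.3% of all probe sets above it were. This was judged on the mean over 6 arrays, so a probe set can pass through its higher line alone. ADAMTS9 226814_at (S116A mean 8.45) and ADAMTS1 222486_s_at (S116D mean 8.61) each had 1 line under that level. The lines did not overlap for 38 members (24.0% of all probe sets did not), including all 22 that were called. Called differences of at least 2-fold numbered 7, against 1.10% of all probe sets: those of MMP1, ADAMTS9 and MMP10 upwards, and those of ADAMTS1, ADAMTS5 and, on 2 probe sets, MMP28 downwards.

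**Figure D1:**
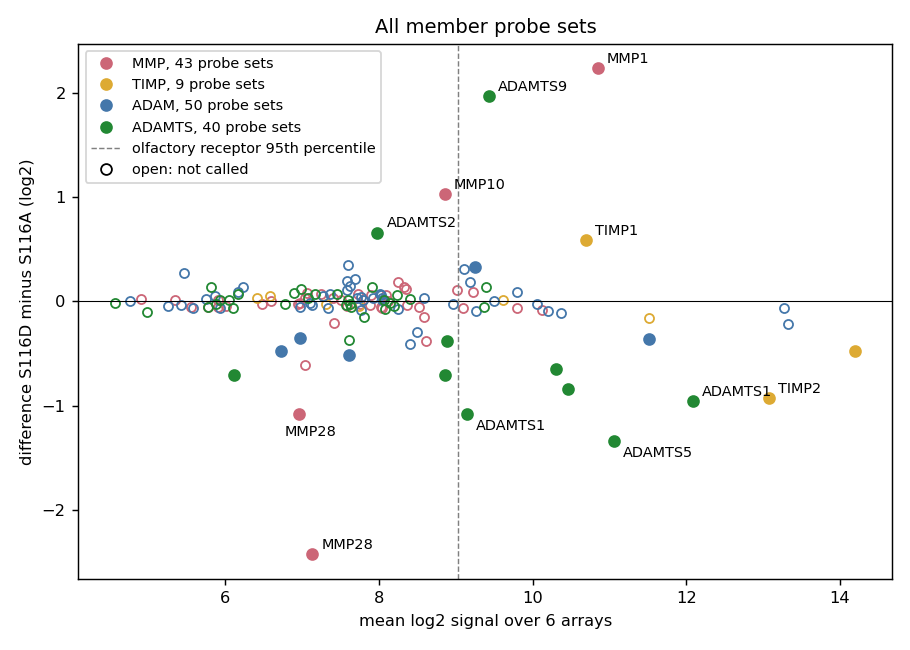
Mean log2 signal over 6 arrays (horizontal) against the S116D minus S116A difference (vertical) for all 142 member probe sets, coloured by family, with called probe sets filled and the olfactory receptor level of 9.03 dashed. Most points lie near 0, with MMP1 and ADAMTS9 highest and MMP28 lowest.

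To show what surrounds the start of members that differed and of their neighbours, stretches of 120 bases just before the annotated start are given for MMP10, for 4 neighbours in its gene cluster, and for TIMP1 and ADAMTS12. They come from RefSeq's table for GRCh38.p14, which matched 36 of the 62 genes, 8 of them with a call. MMP1, MMP28, ADAMTS1, ADAMTS5, ADAMTS9 and TIMP2 were not among the 36, so their starts were not searched. Each is written 5′ to 3′ on the gene's own strand. Capitals mark TGANTCA, a form of the site bound by AP-1, TGAGTAA, a variant known from TIMP1, and TATAAA, the letters of a TATA box. Both strands were searched, and the motifs were chosen with these sequences in view.
MMP10: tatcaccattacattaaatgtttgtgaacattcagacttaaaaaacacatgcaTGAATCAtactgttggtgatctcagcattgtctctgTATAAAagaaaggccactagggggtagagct
MMP8: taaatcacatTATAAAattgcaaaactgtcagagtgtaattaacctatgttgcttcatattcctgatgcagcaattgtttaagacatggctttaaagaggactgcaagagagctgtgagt
MMP27: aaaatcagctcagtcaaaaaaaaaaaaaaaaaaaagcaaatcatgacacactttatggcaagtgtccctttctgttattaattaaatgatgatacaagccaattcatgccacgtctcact
MMP20: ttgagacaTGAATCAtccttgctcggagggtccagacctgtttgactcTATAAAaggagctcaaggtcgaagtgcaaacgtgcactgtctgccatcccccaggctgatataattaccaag
MMP7: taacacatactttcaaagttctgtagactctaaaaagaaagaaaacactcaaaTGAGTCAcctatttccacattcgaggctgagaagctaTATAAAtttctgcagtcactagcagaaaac
TIMP1: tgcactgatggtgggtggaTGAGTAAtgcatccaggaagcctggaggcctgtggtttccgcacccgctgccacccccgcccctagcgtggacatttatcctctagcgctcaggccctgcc
ADAMTS12: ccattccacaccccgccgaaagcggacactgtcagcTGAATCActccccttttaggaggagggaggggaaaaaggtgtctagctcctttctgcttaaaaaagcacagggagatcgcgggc

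The MMP10 stretch is chr11:102780629-102780748 on the minus strand, and those of MMP8, MMP27, MMP20 and MMP7 are chr11:102724955-102725074, chr11:102705770-102705889, chr11:102625333-102625452 and chr11:102530748-102530867, also minus. The TIMP1 stretch is chrX:47582316-47582435 on the plus strand and the ADAMTS12 stretch chr5:33891991-33892110 on the minus strand. In 250 bases before the start, TGANTCA was found for 4 of the 36 genes (MMP10, MMP7, MMP20 and ADAMTS12), against 6.57% of 35116 windows in the table. TGAGTAA was found for TIMP1, against 2.21% of windows, and TATAAA for 7 of the 36, against 10.7%. The member counts are of genes and the percentages are of windows, so the shares are not strictly comparable. TATAAA started 31 and 30 bases before the start for MMP10 and MMP7, but 110 and 72 bases for MMP8 and MMP20. Whether any of these acts as a TATA box was not tested. MMP10 and MMP7 each had TGANTCA starting 67 bases before the start. MMP10 was higher in S116D, whereas MMP7 and MMP20 did not pass. Among the 36 genes searched, members with the letters thus fell on either side of the test. Whether MMP1 and the other called genes outside the 36 have them was not tested.

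Among the MMPs, MMP1 and MMP10 rose in S116D and MMP28 fell on part of its probe sets. Of the 43 MMP probe sets 4 were called, 2 higher and 2 lower, and 39 did not pass. That is 9.30% of the family, near the 8.55% of all probe sets, and the median MMP difference was -0.017. MMP1, interstitial collagenase, which opens the triple helix of fibrillar collagen, read 9.62, 9.82 and 9.73 on the S116A arrays and 12.15, 11.65 and 12.10 on the S116D arrays. Every S116D array stood well above every S116A array. The difference of 2.24 ± 0.14 (SE), from 9.73 ± 0.10 to 11.96 ± 0.27 (SD, n = 3 each), was 4.72-fold (limma adjusted p = 5.53e-05). MMP1 stayed called in all 14 alternative fits, at differences of 2.15 to 2.40.

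MMP10, stromelysin-2, which cuts proteoglycans and activates procollagenases, read 8.60, 8.67 and 7.77 in S116A and 9.52, 9.19 and 9.41 in S116D. The lines did not overlap, but S116A 3 lay clearly below the other S116A arrays. The difference of 1.03 ± 0.22 (SE) was 2.04-fold (limma adjusted p = 0.023), a fold that is not exact because all S116A arrays lay under the olfactory receptor level. It was 0.89 within array set a and 1.53 within array set b. The call was lost without S116D 1, 2 or 3 (adjusted p = 0.055, 0.054 and 0.081).

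MMP28, epilysin, an MMP of skin and other epithelia, gave the largest fall of all members on probe set 239272_at. That probe set read 8.43, 8.66 and 7.94 in S116A and 6.03, 5.92 and 5.81 in S116D, a difference of -2.43 ± 0.16 (SE), or 5.38-fold lower (limma adjusted p = 9.09e-05). Both lines lay under the olfactory receptor level, S116D far under it, so this fold is not exact. Probe set 239273_s_at, at 7.64, 7.63 and 7.24 against 6.37, 6.37 and 6.52, fell by 1.08 (limma adjusted p = 7.73e-04), again with both lines under that level. Another, 219909_at, read 7.22, 7.83 and 7.01 against 6.78, 6.75 and 6.68 and did not pass (-0.61, limma adjusted p = 0.075). It was called with array weights (adjusted p = 0.030) and without S116A 2 (0.045) or S116A 3 (0.020). The brightest probe sets of the gene, 224207_x_at (-0.08, 95% interval -0.28 to 0.13) and 222937_s_at (-0.05, -0.20 to 0.10), did not differ beyond their spread. The 5 probe sets of MMP28 thus ranged from -2.43 to -0.05. Where their probes lie was not analysed here. On this array type the suffix _x_at marks probes that may also bind other genes, and _s_at probes shared by several transcripts.

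**Figure D2:**
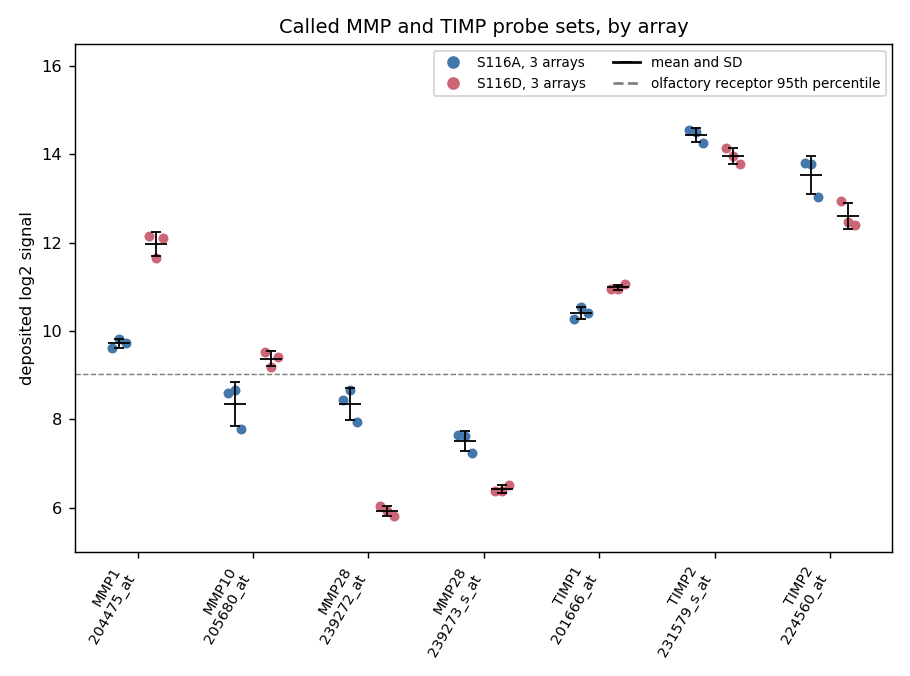
Deposited log2 signal of each called MMP and TIMP probe set on the 3 S116A and 3 S116D arrays, with mean and SD in black and the olfactory receptor level of 9.03 dashed. MMP1, MMP10 and TIMP1 are higher and MMP28 and TIMP2 lower in S116D, and no pair of lines overlaps.

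MMP1 and MMP10 are direct neighbours in the chromosome 11 cluster of MMP genes, in the order MMP7, MMP20, MMP27, MMP8, MMP10, MMP1, MMP3, MMP12 and MMP13. The other 7 genes of the cluster did not pass. Their brightest probe sets differed by -0.21 (MMP12) to -0.01 (MMP8), all at mean signals under 9.03. MMP3, stromelysin-1 and the gene next to MMP1, read 5.67, 5.85 and 5.86 against 5.68, 5.74 and 5.81. MMP7, matrilysin, read 7.81, 7.70 and 7.77 against 7.84, 7.67 and 7.71. The lines overlapped for each. Of the nearest genes outside the cluster, TMEM123 was called at 0.29 (limma adjusted p = 0.013), and BIRC2 (0.24, 0.096), DCUN1D5 (0.16, 0.26) and DYNC2H1 (0.46, 0.28) did not pass.

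**Figure D3:**
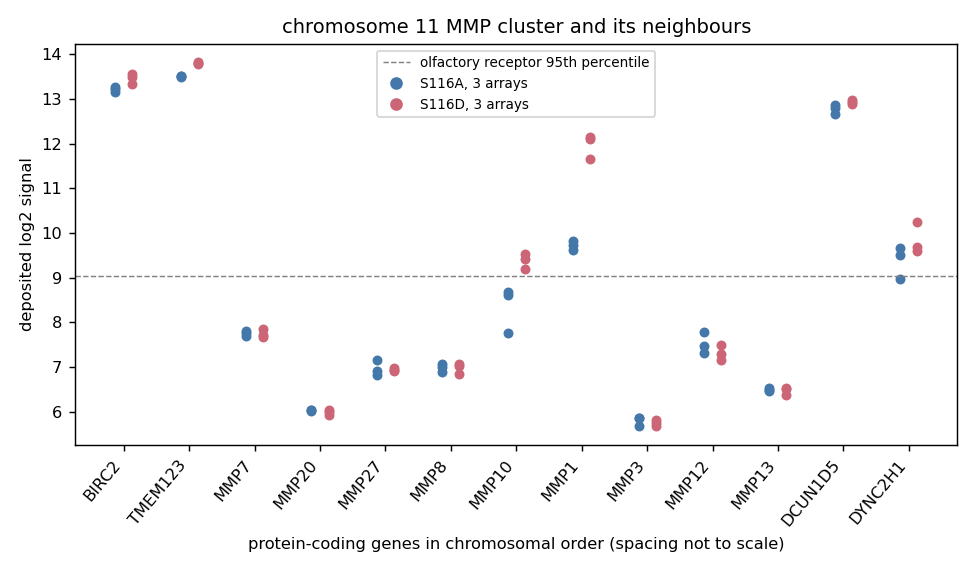
Deposited log2 signal on each of 6 arrays for the 9 MMP genes of the chromosome 11 cluster and 2 genes on either side, in chromosomal order. MMP10 and MMP1 separate by line, while the other MMP genes lie under the dashed olfactory receptor level of 9.03 with overlapping lines.

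The gelatinases and membrane-type MMPs gave no call in this fit. With the array sets as a block, MMP15, a membrane-type enzyme, was called at 0.24 (limma adjusted p = 0.046). MMP2, gelatinase A, read 8.11, 8.16 and 8.22 against 8.59, 8.18 and 8.27 on its brightest probe set, a difference of 0.19 (95% interval -0.06 to 0.43). MMP9, gelatinase B, differed by 0.07 (-0.10 to 0.24). Both lay under the olfactory receptor level. MMP14, the membrane-type enzyme that activates the MMP2 precursor, read above it at 9.83 ± 0.03 and 9.77 ± 0.08 (SD, n = 3 each), a difference of -0.06 (-0.24 to 0.12). MMP16, another membrane-type enzyme, differed by -0.38 (-0.73 to -0.03, limma adjusted p = 0.20). None of the 16 probe sets of 6 membrane-anchored MMP genes was called by limma, and 1 had an unadjusted p under 0.05. Over all probe sets 10760 of 54613 had such a p. The interval for MMP14 leaves out 2-fold differences in either direction. Those for MMP2 and MMP9 do so too, but on signals under the olfactory receptor level. Differences there may be compressed, so these intervals do not exclude such a difference in transcript.

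Of the other MMPs, the collagenase genes MMP8 (-0.01) and MMP13 (-0.02), the stromelysin gene MMP3 (-0.05) and MMP11 (0.09), the matrilysin genes MMP7 (-0.02) and MMP26 (0.01), and MMP12 (-0.21) and MMP19 (0.11) did not pass on their brightest probe sets. Among the 39 MMP probe sets without a call, MMP28 219909_at was the one farthest from 0.

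The TIMPs split, TIMP1 higher and TIMP2 lower in S116D, with TIMP3 and TIMP4 not passing. Of 9 TIMP probe sets 3 were called, 1 higher and 2 lower, where 8.55% of all probe sets were called, and the median difference was -0.024. TIMP1, a broad inhibitor of secreted MMPs, read 10.26, 10.54 and 10.41 in S116A and 10.96, 10.95 and 11.06 in S116D. The S116D arrays lay close together above all S116A arrays, a difference of 0.59 ± 0.09 (SE), or 1.5-fold (limma adjusted p = 0.0059).

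TIMP2, which blocks MMP2 and also takes part in its activation at the cell surface, was lower on 2 of its 3 probe sets. Probe set 231579_s_at read 14.56, 14.51 and 14.25 against 14.14, 13.96 and 13.78, a difference of -0.48 ± 0.11 (SE, limma adjusted p = 0.030). Probe set 224560_at read 13.80, 13.78 and 13.04 against 12.95, 12.46 and 12.40, a difference of -0.93 ± 0.22 (SE, limma adjusted p = 0.033). On it S116A 3 nearly met S116D 1. The remaining one, 203167_at, read 11.64, 11.67 and 11.47 against 11.43, 11.51 and 11.36, with overlapping lines and no call (-0.16, limma adjusted p = 0.37). Within the array sets the called probe sets differed by -0.39 and -0.38, and by -0.84 and -0.61. Leaving out S116A 1, S116A 2, S116D 2 or S116D 3 ended both calls, at adjusted p of 0.10 to 0.13.

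TIMP3, a matrix-bound inhibitor that also blocks ADAM17 and aggrecanases, read 9.60, 9.57 and 9.64 against 9.67, 9.57 and 9.60 on its brightest probe set (0.01, 95% interval -0.15 to 0.18). Its 4 probe sets ranged from -0.04 to 0.05. TIMP4 differed by -0.02 (-0.16 to 0.11) at 7.32 in S116A.

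Among the ADAMs, differences were small, and the main sheddases did not pass. Of 50 ADAM probe sets 5 were called, 1 higher and 4 lower (10.0%, against 8.55% of all probe sets), and the family median was 0.003. ADAM10, which cuts Notch, E-cadherin and CD44, read 13.19, 13.29 and 13.41 against 13.12, 13.26 and 13.34 (-0.06, 95% interval -0.25 to 0.13). ADAM17, the enzyme that releases TNF and several ligands of the EGF receptor, read 10.55, 10.62 and 10.12 against 10.58, 10.17 and 10.21 (-0.11, -0.47 to 0.25). The lines overlapped on these brightest probe sets, and the other 2 probe sets of each gene lay between -0.09 and 0.09.

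ADAM9, another active membrane protease, fell on 1555326_a_at, from 11.78, 11.66 and 11.62 to 11.24, 11.39 and 11.34 (-0.36 ± 0.08, SE, limma adjusted p = 0.027). Its brightest probe set, 202381_at, read 13.46, 13.43 and 13.40 against 13.19, 13.19 and 13.23. These lines did not overlap either, but the difference of -0.22 just missed the threshold (limma adjusted p = 0.051). It was called in 7 of the 14 alternative fits, among them those with array weights (adjusted p = 0.031) and with the array sets as a block (0.014). Its dimmest probe set differed by 0.15 and did not pass. ADAM12, which sheds growth factor precursors and is found in carcinoma and its stroma, was called on 1 of 5 probe sets. On 213790_at it read 7.88, 8.08 and 7.66 against 7.38, 7.24 and 7.45 (-0.51, limma adjusted p = 0.021), all under the olfactory receptor level. Its brightest probe set differed by -0.02, and 202952_s_at and 215613_at by -0.07 and -0.08. On 226777_at the lines did not overlap, but the difference of -0.41 did not pass (limma adjusted p = 0.091). It was called with array weights (adjusted p = 0.027), with the replicate block (0.030) and without S116A 3 (0.012).

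ADAM22 and ADAM23, ADAMs without protease activity that bind LGI proteins in nerve tissue, moved apart. ADAM22 was called on 1 of 8 probe sets, 208237_x_at, at 9.06, 9.03 and 9.15 against 9.48, 9.43 and 9.33 (0.33 ± 0.08, SE, limma adjusted p = 0.034). The other 7 differed by -0.03 to 0.35. With probe sets other than _x_at and _s_at preferred, ADAM22 was read on another probe set and did not pass (0.35, limma adjusted p = 0.11). ADAM23 was called on 2 of 4 probe sets. On 244463_at it read 7.11, 7.14 and 7.17 against 6.79, 6.81 and 6.78 (-0.35 ± 0.05, SE, limma adjusted p = 0.0049), and on 213808_at it fell by 0.48 (limma adjusted p = 0.042). Both are dim probe sets, and the brightest, 206046_at, did not pass (-0.29, limma adjusted p = 0.14). ADAM11 (0.03) and ADAM18 (-0.03), further ADAMs without the site, did not pass.

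Of the ADAM calls, that of ADAM23 on 244463_at held without any 1 array. Without S116A 1, S116A 2 or S116D 2 the other 4 ADAM calls were lost (adjusted p = 0.060 to 0.14). Without S116D 3 those of ADAM9, ADAM22 and ADAM23 213808_at were lost (0.092, 0.061 and 0.067), and without S116D 1 those of ADAM9 and ADAM22 (0.060 and 0.074).

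**Figure D4:**
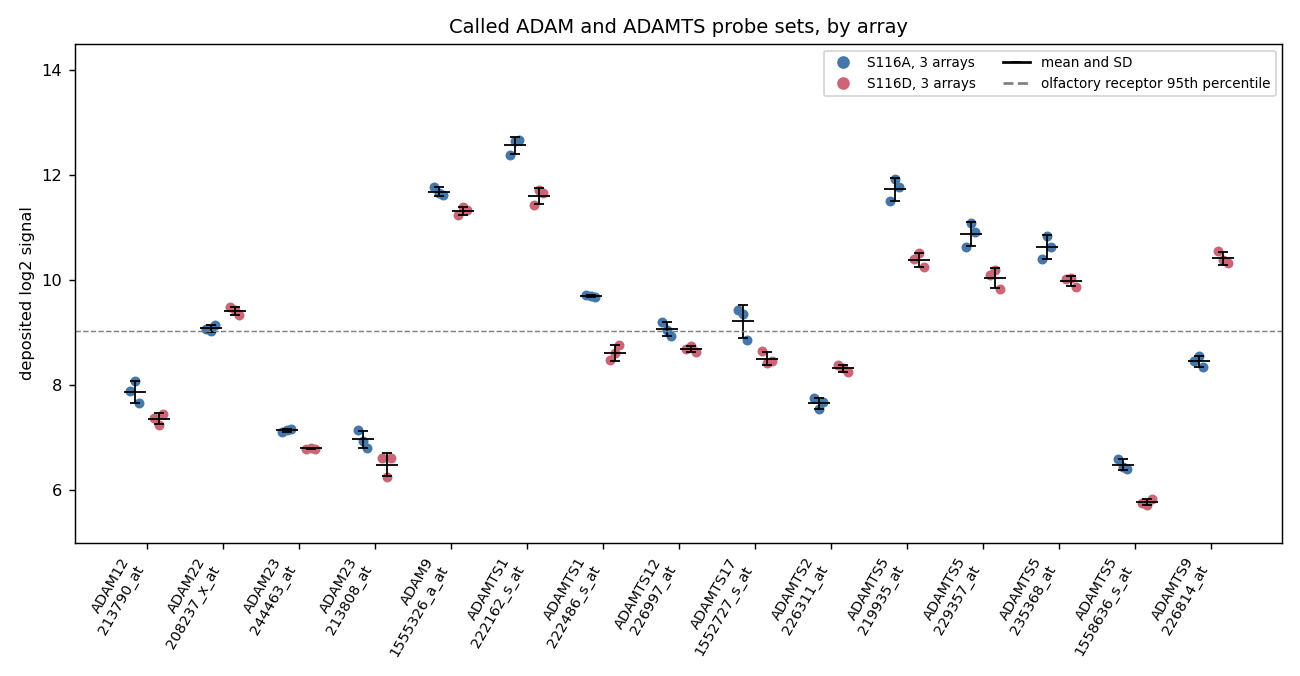
Deposited log2 signal of each called ADAM and ADAMTS probe set on the 3 S116A and 3 S116D arrays, with mean and SD in black and the olfactory receptor level of 9.03 dashed. ADAMTS9, ADAMTS2 and ADAM22 are higher in S116D, and the remaining probe sets, ADAMTS1 and ADAMTS5 among them, lower.

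The ADAMTS family held the most calls: 10 of 40 probe sets, 2 higher and 8 lower in S116D, with a median of -0.019. Over all probe sets 4.36% were called higher and 4.19% lower, 8.55% together. By gene, ADAMTS1 and ADAMTS5 were called lower on all their probe sets. ADAMTS12 and ADAMTS17 were called lower on 1 each, and ADAMTS9 and ADAMTS2 higher on 1 each. The proteoglycanases, which cut versican and aggrecan, had 7 of 18 probe sets called, 1 higher and 6 lower, from ADAMTS1, ADAMTS5 and ADAMTS9. The 6 lower were 2 probe sets of ADAMTS1 and 4 of ADAMTS5. On brightest probe sets 3 of 7 proteoglycanase genes and 5 of all 18 ADAMTS genes were called, against 11.0% of all genes.

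ADAMTS5, the aggrecanase studied in cartilage breakdown, fell on all 4 of its probe sets. The brightest read 11.50, 11.92 and 11.77 in S116A and 10.40, 10.51 and 10.25 in S116D. The lines stood about 1 unit apart at their nearest arrays, and the difference of -1.34 ± 0.12 (SE) was 2.54-fold (limma adjusted p = 4.07e-04). The others fell by 0.84, 0.65 and 0.71 (limma adjusted p = 0.0063, 0.012 and 5.06e-04). The last of these, 1558636_s_at, was dim, at means of 6.48 in S116A and 5.77 in S116D, far under the olfactory receptor level. The call on 235368_at was lost without S116D 3 (adjusted p = 0.056).

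ADAMTS1, a versican-cutting protease that also restrains vessel growth, fell on both of its probe sets. It read 12.38, 12.66 and 12.67 against 11.44, 11.71 and 11.66 on the brighter (-0.96 ± 0.11, SE, 1.95-fold, limma adjusted p = 0.0012). On the other it read 9.71, 9.70 and 9.68 against 8.47, 8.61 and 8.76 (-1.08 ± 0.09, SE, limma adjusted p = 2.76e-04). Neither pair of lines overlapped. ADAMTS1 and ADAMTS5 are direct neighbours on chromosome 21. The nearest measured genes on either side did not pass: CYYR1 (-0.03), APP (0.00) and GABPA (-0.29, limma adjusted p = 0.061) on the ADAMTS1 side, and HEMK2 (0.10) and LTN1 (-0.20) on the ADAMTS5 side.

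ADAMTS9, a versican-cutting protease with a role in secretion and development, rose on 226814_at, from 8.46, 8.56 and 8.34 to 10.55, 10.38 and 10.32. All S116D arrays were more than 1.5 units above all S116A arrays, and the difference of 1.97 ± 0.09 (SE) was 3.91-fold (limma adjusted p = 1.67e-05). The S116A arrays lay under the olfactory receptor level, so this fold too is not exact. It was 2.05 and 2.01 within the array sets. Its 3 other probe sets, at mean signals of 6.98 to 8.07, differed by -0.03 to 0.12, and none passed. ADAMTS4, ADAMTS8, ADAMTS15 and ADAMTS20 gave no call. ADAMTS15, the other proteoglycanase whose brightest probe set read above 9.03, differed by 0.14 (95% interval -0.21 to 0.48), and ADAMTS4 by -0.01 (-0.19 to 0.17).

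ADAMTS2, which removes the amino-terminal propeptide of collagen I, rose on 1 of its 3 probe sets. On 226311_at it read 7.75, 7.54 and 7.67 against 8.39, 8.32 and 8.24 (0.66 ± 0.08, SE, 1.58-fold, limma adjusted p = 0.0016). Both lines lay under the olfactory receptor level there, so this fold is not exact. Its brightest probe set differed by 0.02 and the remaining one by 0.14, and the related propeptidases ADAMTS3 (0.01) and ADAMTS14 (-0.15) did not pass. ADAMTS12, which cuts cartilage oligomeric matrix protein, fell on 226997_at, from 9.21, 9.05 and 8.94 to 8.69, 8.75 and 8.63 (-0.38, limma adjusted p = 0.034). On that probe set all S116D arrays lay under the olfactory receptor level. ADAMTS12 differed by -0.04 on its second probe set. ADAMTS17, linked to a Weill-Marchesani-like syndrome, fell on 1552727_s_at, from 9.44, 9.36 and 8.86 to 8.65, 8.42 and 8.45 (-0.71 ± 0.15, SE, limma adjusted p = 0.022). There S116A 3 lay nearer to S116D 1 than to the other S116A arrays, and all S116D arrays lay under the olfactory receptor level. The gene's other probe sets, 1552726_at (-0.37, limma adjusted p = 0.15) and 1552725_s_at (-0.06, 0.77), did not pass.

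Without any 1 array other than S116A 3 the ADAMTS12 call was lost (adjusted p = 0.064 to 0.13), and without S116A 1, S116A 2, S116D 2 or S116D 3 that of ADAMTS17 (0.081 to 0.090). ADAMTS13, the protease of von Willebrand factor, ADAMTS16 and ADAMTS18 did not pass, at -0.07, 0.01 and -0.05.

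**Figure D5:**
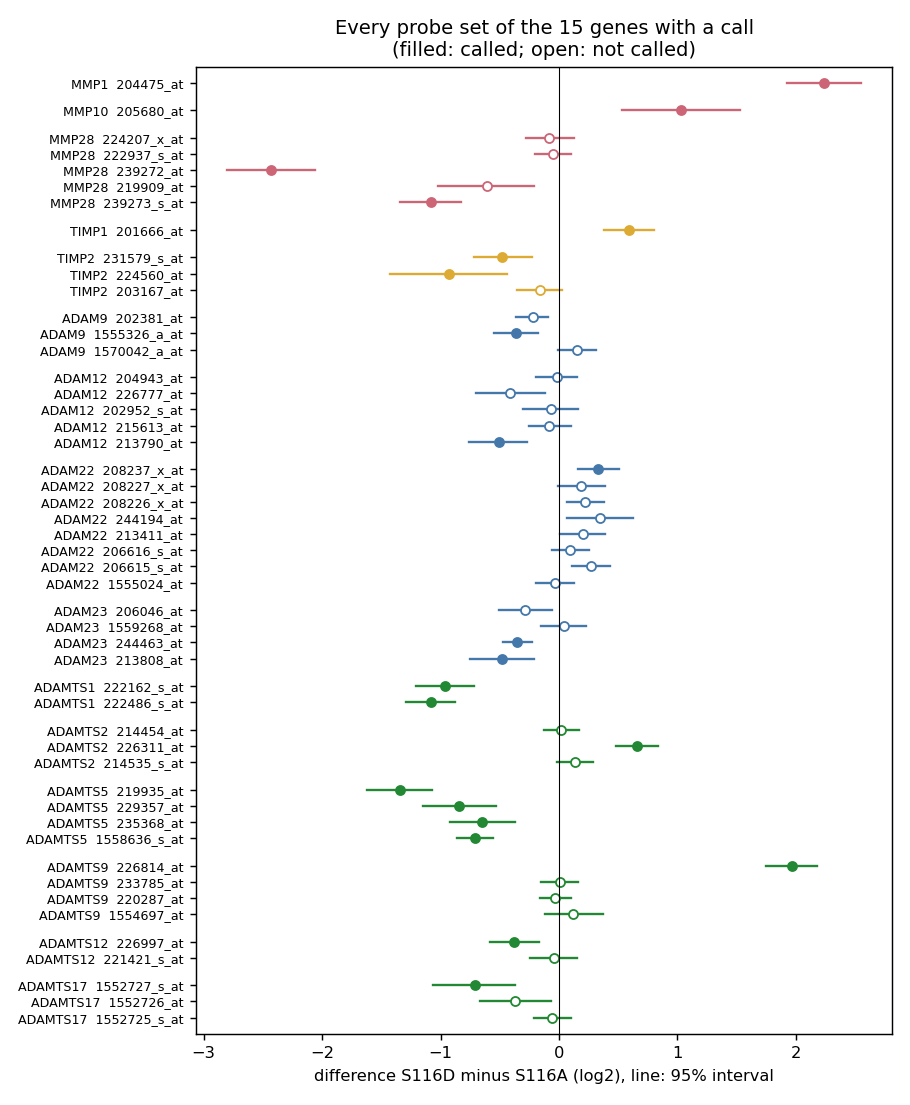
S116D minus S116A difference with its 95% interval (horizontal, log2) for every probe set of the 15 genes with a call, filled where called, coloured by family. ADAMTS1 and ADAMTS5 moved on every probe set, whereas MMP28 and ADAMTS9 range from strong differences to values near 0.

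Of the 15 genes with a call, 12 had more than 1 probe set, and 10 of these were called on fewer than all. ADAMTS1 and ADAMTS5 were called on all. MMP1, MMP10 and TIMP1 have 1 probe set each.

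Genes that act with these families were read on their brightest probe sets from 6 further lists of 70 genes, 69 of them measured. In all 14 were called, 5 higher and 9 lower, against 11.0% of all genes. Transcripts of proteins shed by ADAM10 and ADAM17 held 9 of these calls among 21 genes, 2 higher and 7 lower. Their median difference was -0.299, against 0.006 over all genes. The list was chosen with earlier results of these data known. Of its 21 genes 14 read above the olfactory receptor level, against 9151 of all 19775 genes. Above that level 17.3% of all probe sets were called, and at or below it 4.97%. The share of this list is thus not directly comparable with that of all genes. CDH1, E-cadherin, fell from 8.87 ± 0.68 to 6.06 ± 0.18 (SD, n = 3 each, limma adjusted p = 7.73e-04). Both CDH1 means lay under the olfactory receptor level, S116D far under it, so the size of this fall is not exact. CDH2, N-cadherin, fell by 1.14 (limma adjusted p = 9.09e-04), AXL by 0.60 (7.43e-04) and MET, the hepatocyte growth factor receptor, by 0.58 (0.0014). The 2 that rose were NRG1, neuregulin-1 (0.78, limma adjusted p = 0.0044), and HBEGF, a ligand of the EGF receptor (0.49, 0.0070). The transcripts of the sheddases ADAM10 and ADAM17 did not pass, as given above.

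Among 14 precursor-activating convertases and partners, PCSK5, a proprotein convertase, fell from 12.14 ± 0.26 to 11.23 ± 0.17 (SD, n = 3 each, limma adjusted p = 0.0050). TSPAN33, a tetraspanin partner of ADAM10, rose by 0.57 (limma adjusted p = 0.0046). Of 8 other inhibitors and clearance genes, TFPI2, a protease inhibitor of the matrix, rose by 0.46 (limma adjusted p = 0.0034). RECK, a membrane-anchored MMP inhibitor chosen after its value was seen, did not pass (-0.15, limma adjusted p = 0.50). Of 11 ADAMTS substrates VCAN, versican, rose from 13.09 ± 0.37 to 13.98 ± 0.31 (SD, n = 3 each, limma adjusted p = 0.030). Of 10 related zinc proteases ECE1 fell by 0.43 (limma adjusted p = 0.034). None of 5 ADAMTS-like genes was called by limma. ADAMTSL3, at 0.44 (limma adjusted p = 0.15), and ADAMTSL4, at 0.19 (0.16), were the 2 of 5 with an unadjusted p under 0.05. Over all genes 4667 of 19775 had such a p.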

How the data were processed

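Each line gave 3 arrays (Affymetrix, HG-U133 Plus type), 6 in all. The values are the authors' deposited log2 signals, 1 per probe set and array, taken as log2 because those of all 54675 probe sets lay between 4.336 and 15.33 with near-equal medians. MAS5 and RMA are both named, per the submitters' processing notes, but not their roles or versions. Log base, centring and background steps are otherwise not given in the sources used here. Where a multi-array summary was used, differences of dim probe sets may be compressed. Precision is limited by the number of arrays.

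The 62 control probe sets were left out. GEO's platform annotation, with symbols updated through gene identifiers from RefSeq (GRCh38.p14), gave 1 gene for 41091 probe sets (41037 found in RefSeq), several for 1801 and none for 11721. Titles gave the lines. The comparison used limma 3.58.1 under R 4.3.3 (functions lmFit, eBayes with intensity trend, no covariates), two-sided, Benjamini-Hochberg over 54613 probe sets, threshold 0.05. The fit was tested on simulated data. SEs and intervals come from limma's moderated variance, SDs from 3 arrays, and folds are 2 to the power of the difference. A gene's brightest probe set is that with the highest mean over 6 arrays. An exact permutation test of 3 against 3 cannot go below 0.1, so none is given.

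Named were every member gene with a call, every TIMP, the 2 brightest other genes of each functional group, and up to 4 called genes per further list, or 2 of a list with none. Further genes and each gene's other probe sets were added where a comparison needed them. Members, lists and rules were chosen with earlier results of these data known. The alternatives took array weights, ordinary t statistics, no intensity trend, probe sets above the median signal alone, quantile normalization, centring on array medians, the replicate number as a block, leaving out each array, other probe sets per gene and, chosen after seeing the data, the array sets as a block. The planned pseudocounts were not needed.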

Additional observations from a re-analysis of the deposited data

How the results depend on the processing

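No called member probe set changed direction under the 14 alternatives of the probe set fit, and 8 of 22 stayed called in every one that tested them: MMP1, MMP28 239272_at, ADAMTS9 226814_at, ADAMTS2 226311_at, ADAMTS1 222486_s_at, ADAMTS5 219935_at and 1558636_s_at, and ADAM23 244463_at. With ordinary t statistics, which share no variance between probe sets, 9 members were called in place of 22 (3 higher and 6 lower, against 6 and 16). By family these were 2 MMP, 0 TIMP, 2 ADAM and 5 ADAMTS probe sets. On brightest probe sets 4 member genes were called in place of 10, and 5 further genes in place of 14. For the TIMPs, limma called 3, and 3 had an unadjusted p under 0.05, where 10760 of all 54613 probe sets did. Over all probe sets ordinary t statistics called 1026. Among probe sets above the median signal 2 MMP calls were left in place of 4, since the 2 called MMP28 probe sets are too dim to be tested there. ADAM calls rose from 5 to 9 with array weights and to 8 with the array sets as a block, while calls over all probe sets rose from 4672 to 6409 and 8099. Leaving out 1 array gave 13 to 26 member calls, 4 to 6 higher and 9 to 20 lower, and 3 to 5 MMP, 1 to 3 TIMP, 1 to 7 ADAM and 7 to 11 ADAMTS calls. On brightest probe sets it gave 5 to 11 member genes and 10 to 15 further genes. The member count fell below 15 without S116A 1 (14), S116D 2 (13) or S116D 3 (13), where calls over all probe sets fell to 2775, 2608 and 2772. With the median over each gene's probe sets 9 further genes were called, and ADAMTS9 (-0.01, limma adjusted p = 0.95), ADAMTS17 (-0.37, 0.12) and ADAMTS12 (-0.21, 0.054) were not, while MMP28 (-1.56, 2.2e-04) and ADAMTS2 (0.48, 0.0028) were. That median was taken array by array, so it can fall on different probe sets in each line. For MMP28 it fell on 239272_at or 222937_s_at in S116A and on 219909_at in S116D. For ADAMTS2 it fell on 214535_s_at in S116A and on 226311_at in S116D. Neither median difference is thus that of any single probe set. The cause of the other changes was not tested.

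Replicate numbers were not treated as pairing the arrays: same-numbered arrays correlated in their deviations at 0.45, -0.040 and 0.44, and 4 of 6 arrays correlated best with their own number. With the replicate block 29 members were called, 9 of them ADAM probe sets, and 23 further genes, while calls over all probe sets rose to 7340. Calls gained with that block included MMP16 223614_at (-0.38, limma adjusted p = 0.028), MMP28 219909_at (-0.61, 0.018) and ADAM9 202381_at (-0.22, 0.029). No called member lost its call with that block.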

Other observations

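Transcripts from the opposite strand of member genes were left out of the families, and 2 of their 21 probe sets, counted with the pseudogenes, were called, a share near the 8.55% of all probe sets. MMP24OS, a gene opposite MMP24, read 10.43, 10.39 and 10.13 in S116A and 10.90, 10.72 and 10.76 in S116D on 225860_at, a difference of 0.47 ± 0.10 (SE, limma adjusted p = 0.024). Its other 3 probe sets differed by 0.14 to 0.25 and did not pass, and neither did MMP24 itself. ADAMTS9-AS2, an antisense transcript of ADAMTS9, was called on 1 of 5 probe sets, at 6.80, 6.73 and 6.65 against 7.03, 6.96 and 6.93 (0.25 ± 0.06, SE, limma adjusted p = 0.043), all dim. The pseudogenes ADAM3A, ADAM3B, ADAM5 and ADAM6 gave no call by limma among 6 probe sets. None had an unadjusted p under 0.05, where 10760 of all 54613 probe sets did.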
